A study of Sus scrofa with 12 samples.

Results

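In the longissimus muscle of 2-week-old piglets, 3159 chromatin loops were called in both Large White (LW) libraries and had no counterpart in Meishan (MS) muscle. They were chosen by the loop calls themselves. A loop counted when the same pair of 5-kb anchors was listed in LW replicate 1 and in LW replicate 2, and when neither MS list held a loop with both anchors within 1 bin (5 kb) of it. They made up 20.8% of the 15174 loops shared by both LW libraries, and 122406 different loops were listed in any of the 4 libraries. Their 3159 pairs of anchors fell on 5668 different 5-kb bins, out of 71411 bins that served as an anchor in any library. LW is a commercial lean breed and MS a local Chinese breed. The muscle came from male piglets of the same age and had been frozen. Loops were mapped by BL-HiChIP with an antibody against H3K27ac, with 2 libraries per breed, and chromatin-bound RNA was mapped by GRID-seq, also with 2 libraries per breed. The methods name 2 male piglets without saying whether each library had an animal of its own, so every p-value below measures the spread between libraries, which may be technical, and breed cannot be told apart from other differences between the few animals sampled.

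H3K27ac, acetylated lysine on a histone tail, marks promoters and enhancers in use. A loop between marked regions brings an enhancer, often far from any gene, close to a promoter, and such contacts accompany cell-type-specific transcription in muscle as in other tissues. GRID-seq ligates RNA that is bound to chromatin to the DNA beside it, so it reads which RNAs lie on a given stretch of the genome, most of them near the gene that made them.

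The lists were of unequal length. Those of LW held 57028 and 43282 loops, and those of MS 45061 and 33353. Sharing did not follow breed. LW replicate 1 and LW replicate 2 shared 15174 loops with identical anchors, which was 26.6% of the first list and 35.1% of the second. LW replicate 2 and MS replicate 2 shared 15042, which was 34.8% and 45.1% of the lists, and LW replicate 1 and MS replicate 1 shared 14202. MS replicate 1 and MS replicate 2 shared 11627, or 25.8% and 34.9%, about as many as libraries that differed in both breed and number (11602 and 11830). The mirror set, loops in both MS libraries with no LW loop within 1 bin, held 1133 loops or 9.74% of the 11627. When every list was shortened to its 33353 strongest loops, 1663 loops were of the LW kind, 15.9% of those shared by both LW libraries, against 1487 or 14.5% of the MS kind. Of the 1663, 1385 were among the 3159. In single libraries, loops without a counterpart in the other 3 libraries ranged from 12.9% of MS replicate 2 to 31.8% of LW replicate 1.

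Each loop carries an FDR from the authors' loop caller, and its strength is given here as −log10 FDR, which starts at 2. Since strength came from the same calls as the choice, it is a description. The LW loops without MS were weak among LW loops. Their median strength was 3.71 in LW replicate 1 and 3.54 in LW replicate 2, against 6.63 and 6.92 for the 12015 shared LW loops that had an MS counterpart. By the lower of both LW values, the median was 2.85 with quartiles of 2.35 and 3.81, 363 loops reached 5 and 37 reached 10. The edge of the definition was not sharp. The 935 loops just inside, whose nearest MS loop lay 2 bins away, had medians of 4.01 and 3.57, and the 2212 just outside, with an MS loop 1 bin away, had 5.70 and 5.04. A further 1901 loops lay 3 to 20 bins from the nearest MS loop, and 323 lay more than 20 bins away.

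Most of these loops were short. The median distance between anchors was 35 kb, the quartiles were 5 and 100 kb and the longest spanned 1775 kb, against a median of 40 kb and quartiles of 10 and 105 kb for LW loops with an MS counterpart. Neighbouring bins made up 813 of them (25.7%, against 22.7%), 57.8% lay under 50 kb, 16.4% between 50 and 100 kb and 25.5% between 100 kb and 1 Mb. Seen from the other side, the share of shared LW loops that had no MS counterpart ran only from 18.7% at 50 to 95 kb to 24.4% at 10 to 15 kb. Of the 25 shared LW loops of 1 Mb or more, 11 had no MS counterpart. These long loops included one of 1280 kb from MAF, a transcription factor gene, one of 1015 kb from MYC, one of 1285 kb from RUNX1T1 and one of 1000 kb from IGFBP5, which codes for an insulin-like growth factor binding protein. In 10 of the 11, both anchors also took part in other MS loops, and the exception was on chromosome Y.

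The autosomes held these loops in similar shares. Over the 18 autosomes the share of shared LW loops without MS ran from 16.1% on chromosome 12 to 24.5% on chromosome 9, with a median of 20.3%. Chromosome X had 96 of 347 (27.7%). Chromosome Y had 9 of 14 (64.3%), and on it the loop from chrY:6280001-6285000 to chrY:6320001-6325000, which holds no gene start, had strengths of 12.2 and 31.9. The counts on Y are small.

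**Figure D1:**
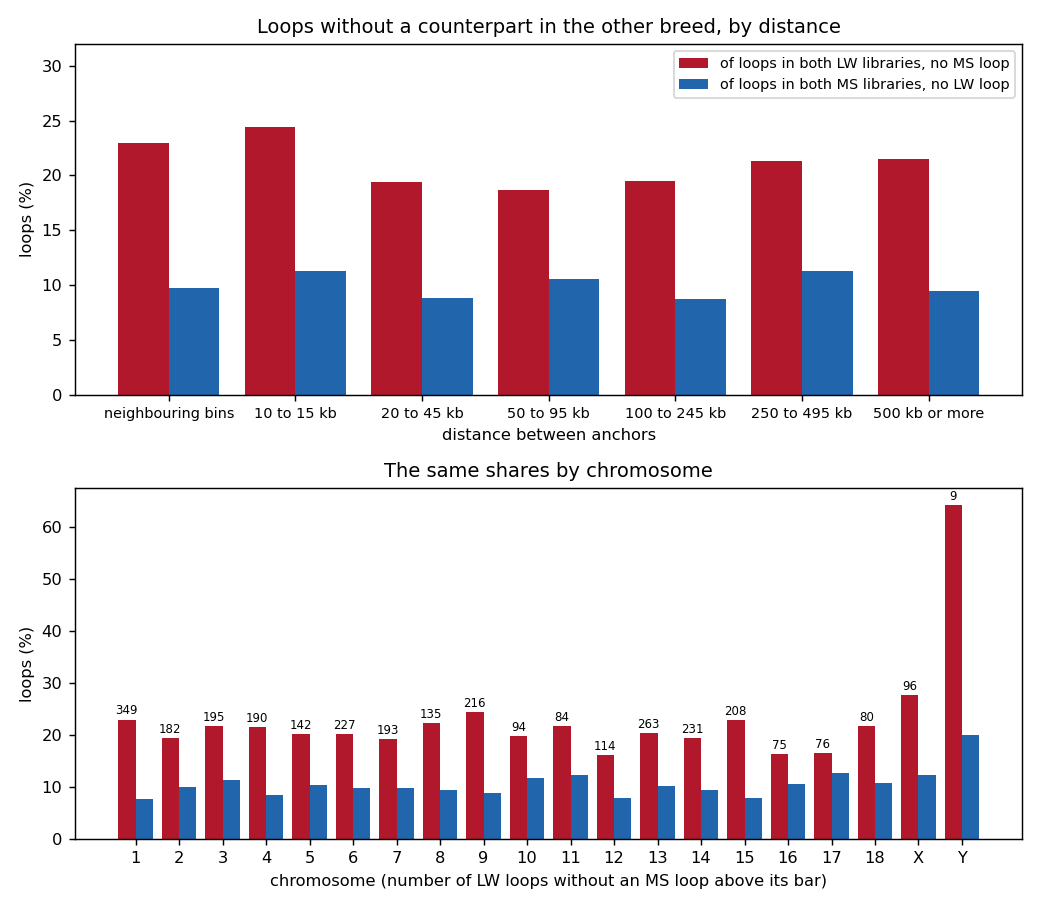
Bars give the percentage of loops shared by both libraries of a breed that have no loop in the other breed within 1 bin, by distance between anchors (top) and by chromosome (bottom), LW in red and MS in blue. The LW share stays between 18.7% and 24.4% over all distance classes, and only chromosome Y, with 9 loops, stands far from the other chromosomes.

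Most of these loops touched DNA that looped elsewhere in MS. In 1427 loops (45.2%) both anchors were anchors of other loops in an MS library, in 1239 (39.2%) one anchor was, and in 493 (15.6%) neither was. For the mirror set these shares, against LW loops, were 62.9%, 29.6% and 7.50%. Thus 2078 of the 5668 anchors were in no MS loop at all.

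The anchors lay at gene starts less often than those of LW loops with an MS counterpart. The RefSeq table of Sscrofa11.1 gives no strand, so where no RNA list gave one, either end of a gene counted as its start when it lay in the anchor or within 1 kb of it. On this measure 43.8% of the 3159 loops had a gene start at one or both anchors, against 54.4% of the 12015 with an MS counterpart, 53.4% of the mirror set and 47.5% of all loops. For protein-coding genes alone the shares were 38.2%, 48.2%, 45.6% and 41.3%. A gene start at both anchors was found for 348 of 3159 loops, against 2040 of the 12015. The order of LW loops without and with MS was the same in each of the alternative settings tried. Loops share anchors and are not independent of each other, and no test was made. Anchors in no MS loop held a gene start in 18.8% of cases, and those also in an MS loop in 32.3%.

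Most of these loops stood alone. Joined where they shared an anchor or had anchors in neighbouring bins, the 3159 loops formed 2463 groups, of which 2003 were single loops (63.4% of the loops), 329 were pairs and 131 held 3 or more, in all 498 loops (15.8%). Only 26 groups held 5 or more. The 10 largest are described by the loops that each library had inside their span, which the choice of loops favours in LW, so that the numbers are descriptions.

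The largest group, 13 loops on 14 anchors, spanned 1410 kb at chr7:16465001-17875000 around SOX4, a transcription factor gene of development, with CDKAL1 on one side. All loops inside that span numbered 61 and 44 in LW and 22 and 11 in MS. Its most connected anchor, chr7:17350001-17355000 at a start of LOC100512907, had 12 loops in each LW library, against 3 and 2 in MS. The strongest of its loops in LW replicate 1 joined an end of SOX4, counted as a start, to a bin 400 kb away, with strengths of 10.5 and 2.91. The strand of SOX4 was not known, and at its 2 ends together the libraries had 20 and 19 loops in LW and 13 and 11 in MS. The gene thus looped in both breeds. The LW loops without MS were 2 of its 8 shared LW loops and lay at opposite ends of the gene.

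A second kind of group was empty in MS. At chr14:85450001-85550000, 7 loops lay over 100 kb that hold the starts of RGR, CDHR1 and CCSER2. One of 45 kb joined CDHR1 to RGR, both loops of CCSER2 ended at bins without a gene start, and one of 15 kb, with strengths of 11.07 and 15.2, had no gene start at either anchor. RGR and CDHR1 are best known from the retina. The span held 9 and 10 loops in LW and 0 in each MS library, and all 7 loops shared by both LW libraries there were without MS. The loop inside RGR, 10 kb long, had strengths of 8.16 and 15.7. Near KCNS3, a gene for a potassium channel subunit, 6 loops at chr3:119780001-119955000 stood among 13 and 11 loops in LW and 1 and 3 in MS. The one of 85 kb that reached an end of KCNS3 counted as a start had strengths of 6.90 and 15.5. They were 6 of the 8 loops shared by both LW libraries in that span.

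**Figure D2:**
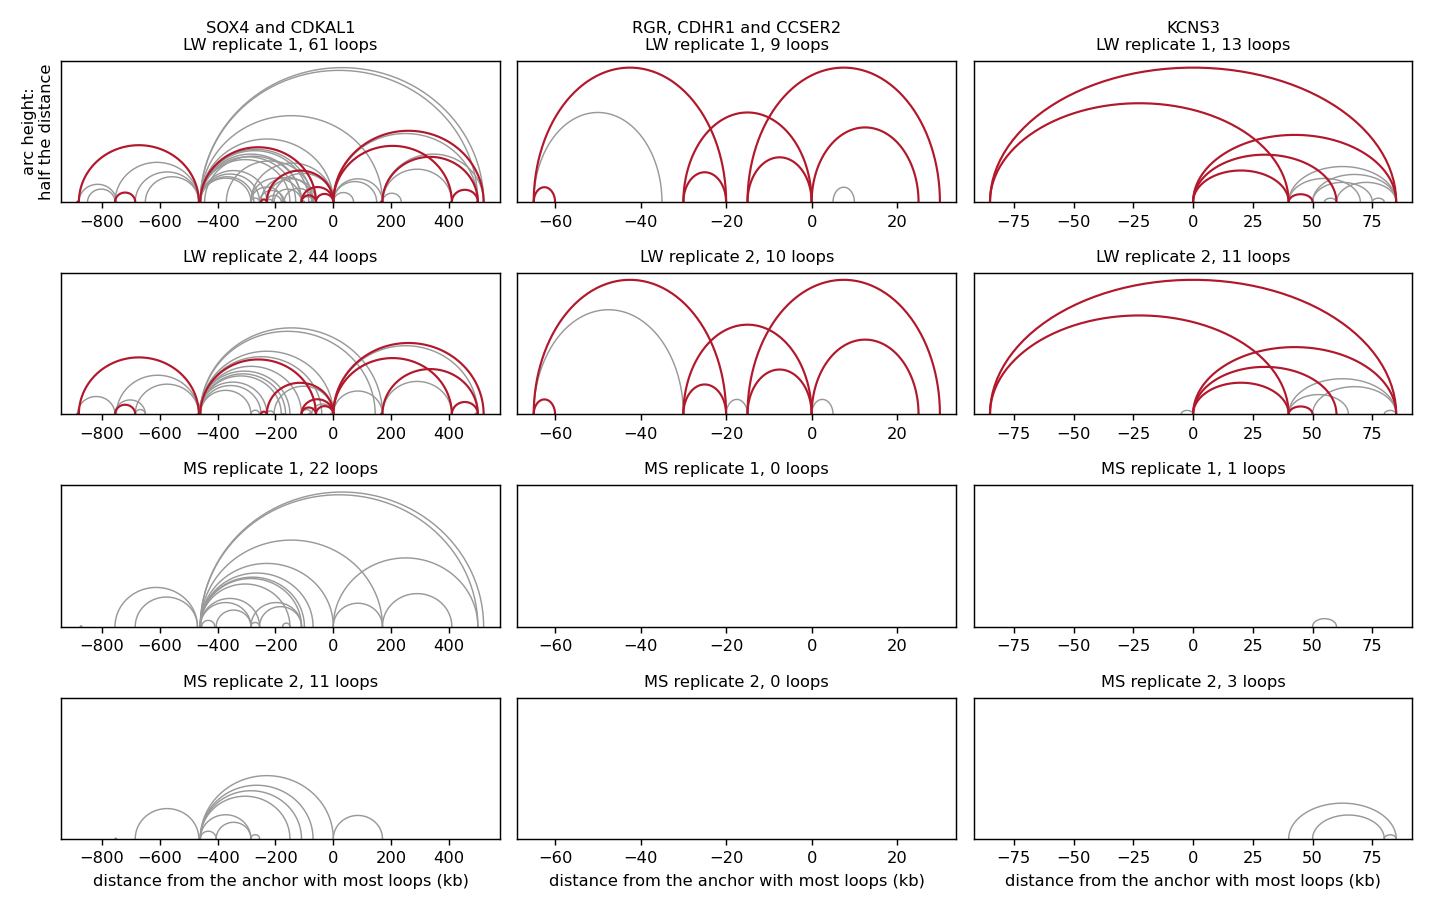
Each arc is a loop with both anchors in the span of a group, drawn by library (rows), with the distance in kb from the most connected anchor on the x axis and a height that grows with the loop's length. Red arcs are LW loops without MS, and grey arcs are all other loops. The RGR span is empty in both MS libraries, and the SOX4 span keeps 22 and 11 loops there.

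Around MAF, 7 loops spanned 1285 kb at chr6:8465001-9750000, and 6 of them left from one anchor at the MAF start, at distances of 340 to 1280 kb. Inside the span the libraries had 104 and 90 loops in LW and 65 and 48 in MS. A separate group of 6 loops lay inside the same region, at chr6:8600001-9045000 over MAF and its neighbour WWOX, with 24 and 27 loops in LW and 18 and 12 in MS. The other large groups lay at KCNJ16, a potassium channel gene (7 loops), at ADSL, a gene of purine synthesis, with MKL1, TNRC6B, MCHR1 and FAM83F (7 loops), at PRKCH, SNAPC1 and HIF1A (6 loops), at SPATS2L (6 loops) and inside WDR70 (6 loops). In each of the 10 groups but the one at RGR, between 3 and 8 of the 6 to 14 anchors also took part in an MS loop, and at RGR 2 of 8 did.

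Most of the strongest single loops lay 2 bins from an MS loop. The first by the lower of its LW strengths, 66.0 and 85.3, was 30 kb long at chr12:47805001-47840000 and lay within SLC43A2, which codes for an amino acid transporter of the cell membrane. A loop of 65 kb at ASB4, with strengths of 18.9 and 51.2, and one of 510 kb inside SOX6, a transcription factor gene known for its part in setting fast muscle fibre type, with 14.3 and 21.8, had an MS loop 2 bins away, as did the loop of SLC43A2. The third strongest joined neighbouring bins within DCAF8 at chr4:90225001-90235000, with 24.6 and 21.5. Neither of its anchors was in an MS loop. The remaining loops of the first 10 lay at REPIN1, within PTP4A2, at uncharacterized genes (LOC102162507, LOC106508361, LOC110256388 and LOC102166622) or, for one of 335 kb on chromosome 15, at no gene. For 7 of the first 10 the nearest MS loop lay 2 bins away.

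Among genes, 1849 had at least 1 LW loop without MS at a start, of which 1538 were protein-coding and 311 lncRNA genes. The strand was known for only 87 of the 1849. For all others both gene ends counted as starts, so their loop counts pool both ends and are not counts of promoter loops. The coding genes were 27.6% of the 5579 with any loop shared by both LW libraries. Most had a single such loop (1350), 159 had 2 and 29 had 3 or more. Of the 1538, 222 (14.4%) had no loop at all in either MS library. All loop counts by gene below are descriptions, since loop calls by breed made the choice.

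MAF led with 6 LW loops without MS, of 14 shared LW loops. It had 23 and 35 loops in LW and 17 and 16 in MS. CITED2, a transcriptional co-regulator gene, had 4, all to bins 385 to 580 kb away on one side. Its libraries had 15 and 33 loops in LW and 10 and 24 in MS, which overlapped. RGMA, which codes for a co-receptor of bone morphogenetic proteins, had 4 over 190 to 830 kb, with 24 and 23 loops in LW and 13 and 12 in MS. CCDC89 and DCAF12 also had 4 each. Many of the genes with 3 had both MS libraries below both LW libraries. Among them were ADSL (14 and 18 in LW, 4 and 3 in MS) and SAV1, a gene of the Hippo pathway that limits tissue growth (11 and 16, 5 and 3). ARCN1 (14 and 14, 6 and 6), ACKR3, MYC and RUNX1T1 were others. The 3 loops of ARCN1 left an anchor it shared with IFT46 and counted for both. FOXO3, a gene that drives protein breakdown in wasting muscle, did not separate, with 21 and 28 loops in LW and 18 and 24 in MS. Neither did VGLL2 (15 and 15, 9 and 16), a cofactor of TEAD factors in muscle, nor QKI (10 and 20, 17 and 14).

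**Figure D3:**
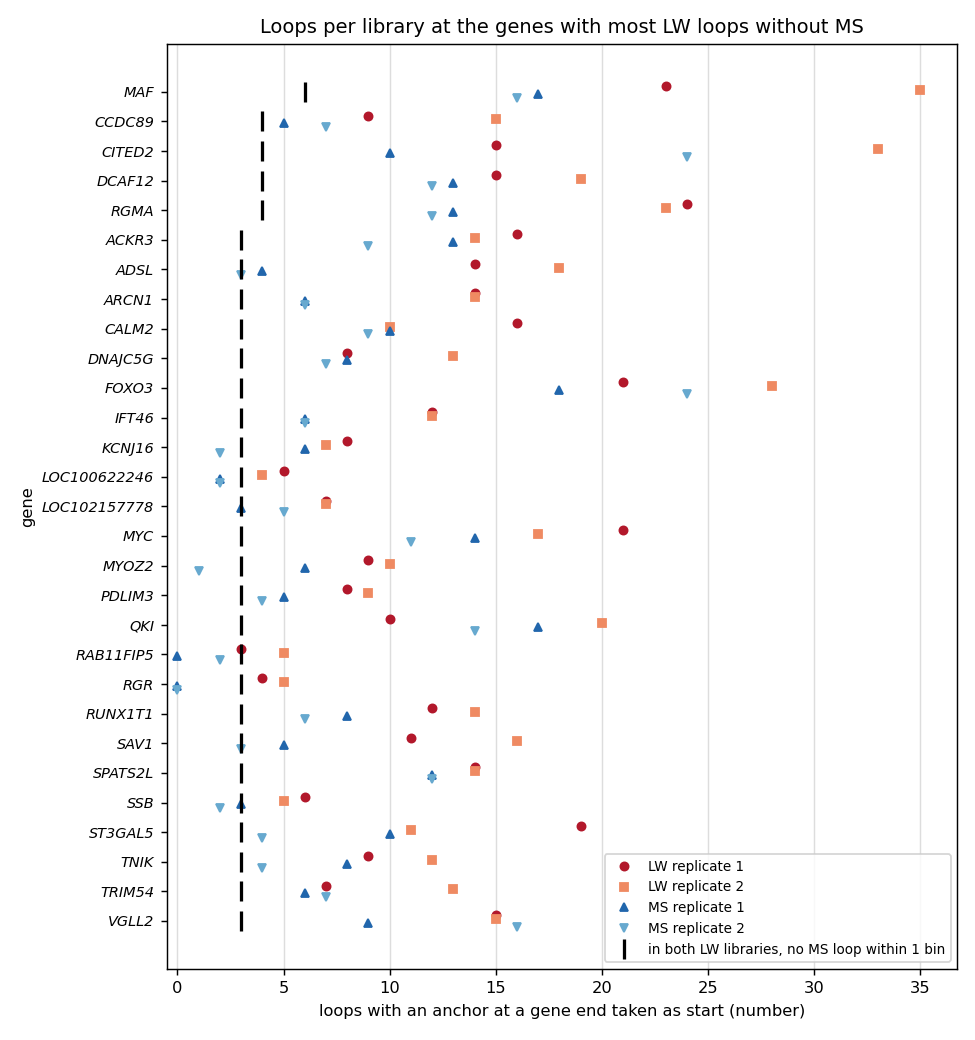
Points give the number of loops at the gene ends counted as starts for each of the 29 coding genes with 3 or more LW loops without MS, by library. Black ticks give the number of LW loops without MS. Both LW libraries lie above both MS libraries for MAF and ADSL, while FOXO3, VGLL2 and QKI overlap between breeds.

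Genes whose looping was seen in LW alone began with RGR. RUNX1, a transcription factor gene, had 8 and 3 loops in LW and 0 in each MS library. Its shared LW loops were both without MS, one of 195 kb with strengths of 12.4 and 20.3 and one of 165 kb within the gene with 8.44 and 6.77. MAPKAP1 (5 and 4 loops), which codes for a subunit of the mTORC2 kinase complex, MTO1 (3 and 4), RNF180 (3 and 2), EPRS (3 and 2) and RIF1 (3 and 3) also had 0 in each MS library. SIX2, a homeobox gene, had 2 and 2, with one loop of 200 kb without MS. A list at 0 means no loop under the FDR limit, and contact counts below that limit were not used here.

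The genes of muscle structure did not hold a larger share of these loops than coding genes in all. Over all coding genes, 16.6% of the loops that both LW libraries had at a gene start were without MS (1762 of 10620, a loop counted once for each gene it reached). For the sarcomere list, 9 of 35 genes with a shared LW loop had one without MS, and 15 of their 117 loops (12.8%) were of this kind. MYOZ2, which codes for a Z-disc protein binding calcineurin, had 3 of them, over 15 to 120 kb, with 9 and 10 loops in LW and 6 and 1 in MS. PDLIM3, a Z-disc linker gene, had 3 (8 and 9 in LW, 5 and 4 in MS). TRIM54, whose ubiquitin ligase sits on the sarcomere and microtubules, had 3 over 50 to 170 kb, all from an anchor it shared with DNAJC5G (7 and 13, 6 and 7). TTN, ACTN2, NEB, CMYA5, MYOZ1 and CAPZB had 1 each. For myosins and the thin filament it was 3 of 14 genes, MYH4, MYL1 and TNNT3, and 3 of 36 loops (8.33%).

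Among genes of contraction control, 6 of 24 calcium handling genes had such a loop, 8 of 65 loops (12.3%). JPH1, a junctophilin that ties the sarcoplasmic reticulum to the T-tubule, and CACNA2D1, a calcium channel subunit gene, had 2 each, and CAMK2D, JPH2, ORAI1 and PLN had 1. Among potassium and chloride channel genes, KCNS3 had 2 such loops and KCNJ11 had 1. At the neuromuscular junction it was CHRNG, the embryonic acetylcholine receptor subunit gene, and UTRN, of 7 genes.

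By loops, the list of membrane and repair genes had the highest share of the lists, 8 of 29 (27.6%, against 16.6% over all coding genes). Of its 13 genes with a shared LW loop, 7 had one without MS (53.8%, against 27.6%), and by genes the growth and insulin list was higher. POPDC3 had 2, and ANXA2, CAV3, LAMA2, POPDC2, SGCB and SSPN had 1 each. LAMA2, the laminin subunit that anchors fibres to the basement membrane, had 4 and 8 loops in LW and 1 and 2 in MS. SGCB, a sarcoglycan of the dystrophin complex, had 2 and 1 in LW and 0 in each MS library. CAV3, which coats the caveolae of muscle, overlapped between breeds, with 4 and 7 in LW and 5 and 5 in MS.

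Growth and insulin signalling had 10 of 18 genes with such a loop (55.6%), against 27.6% over all coding genes, but 12 of 72 loops (16.7%), near the 16.6% over all coding genes. IRS1, the adaptor below the insulin receptor, had 2, of 605 and 325 kb, with 20 and 36 loops in LW and 17 and 23 in MS. SMAD7, an inhibitor of transforming growth factor signalling, had 2 (7 and 9, 9 and 7). MSTN, whose product myostatin limits muscle growth, had 1 loop of 185 kb from an anchor it shared with C15H2orf88, with strengths of 4.85 and 2.08, among 7 and 6 loops in LW and 3 and 3 in MS. GHR, the growth hormone receptor gene, had 1 of 355 kb (13 and 17, 10 and 17). TAB1, a kinase adaptor gene, had 1 of 70 kb to the start of RPL3 (6 and 3, 4 and 4). ACVR2A, FSTL1, IGFBP5, SMAD3 and TGFB2 had 1 each.

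Of the myogenic regulators, 7 of 19 genes had a loop without MS, 9 of 57 loops (15.8%). Beside VGLL2 and SIX2 these were MEF2C, SRF and TEAD1, factors that switch on muscle genes, and EYA3 and LBX1. The TEAD1 loop, 60 kb long, was strong in LW, at 11.6 and 22.7. MEF2C had 1 and 7 loops in LW and 3 and 2 in MS. Developmental transcription factors had 6 of 17 genes and 8 of 51 loops (15.7%), with RUNX1 and SOX4 at 2 each and HOXA5, HOXC9, HOXD8 and MSC at 1. In this list 8 genes had a loop of the mirror set at a start, PRRX1 and TBX3 among them, against 740 of all coding genes. The immediate early and KLF list had 5 of 17 genes, with MYC at 3 and EGR2, KLF3, KLF7 and KLF11 at 1, and 7 of 60 loops (11.7%), against 27.6% of genes and 16.6% of loops over all coding genes.

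The metabolic, atrophy, clock and matrix lists were all below the 16.6% of loops over all coding genes. So was every other list with a shared LW loop, except membrane and repair (27.6%) and growth and insulin signalling (16.7%). A low share was thus not particular to metabolic genes. FOXO and atrophy genes had 2 of 19 genes, FOXO3 and NR1D1, with 4 of 57 loops (7.02%). Oxidative regulators had SIRT1 alone of 9 genes, with 1 of 14 loops (7.14%). Glycolysis had PDK4 with 2 loops and PGAM1 with 1, of 14 genes and 30 loops. AMPK and glycogen genes had PHKA1, PHKB and PRKAG3 of 16, and 3 of 31 loops (9.68%). PRKAG3, the AMPK subunit gene known in pigs for its effect on muscle glycogen, had 1 loop of 80 kb with strengths of 5.08 and 5.31, among 8 and 7 loops in LW and 5 and 6 in MS. Lipid genes had 3 of 19, PLIN2 with 2 loops and LPL and CEBPD with 1, and 4 of 42 loops (9.52%). Clock genes had CRY2 and NR1D1 of 12, and matrix genes FBN1 and MXRA8 of 12. Of the marker lists of other cells, which cover satellite, endothelial, mesenchymal, smooth muscle, immune, adipocyte and Schwann cells, 1 gene had a loop without MS, DPT. They had 16 genes with a shared LW loop, and 1 of their 33 loops was of this kind. Muscle fibre markers had 4 of 12 genes (MYH4, NEB, TNNT3 and TTN) and 4 of 35 loops (11.4%). Among the listed genes, CMYA5, CAMK2D, PHKB, KLF7 and SSPN also had a loop of the mirror set at a start. Lists this short move by several percent with 1 loop, and no list was tested against the others.

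RNA on these anchors was measured by GRID-seq, which the choice of loops did not use. Across all RNAs, 40.4% and 53.6% of the 5668 anchors carried signal in LW, against 53.9% and 63.2% in MS, which is 47.0% ± 9.31 and 58.6% ± 6.60 (SD, n = 2 libraries). All 71411 loop anchors gave nearly the same, at 40.7%, 52.8%, 54.2% and 62.9%. The anchors of LW loops with an MS counterpart were higher in every library, at 46.4%, 59.3%, 63.2% and 71.3%. Both LW libraries were below both MS libraries on the 5668 anchors, though LW replicate 2 and MS replicate 1 were nearly equal. With 2 libraries against 2, an exact two-sided permutation test cannot go below 0.333, so none was made.

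When RNAs made on other chromosomes were left out, the order of the breeds' means turned, to 32.4% in LW and 27.02% in MS. The shares were then 26.96% and 37.9% in LW and 23.1% and 31.0% in MS, which overlapped and were again close to all loop anchors, at 26.0%, 35.6%, 22.1% and 30.8%. RNAs of other chromosomes made 41.4% and 41.8% of the pairs of RNA and bin on these anchors in LW and 67.7% and 64.0% in MS, yet only 0.544% to 1.36% of the signal. Single RNAs went in either direction. ENSSSCG00000048037 was on 430 and 853 of the anchors in LW and on 1138 and 1223 in MS, TTN on 452 and 502 against 925 and 757, and CMTM4 on 1 and 10 against 88 and 184. MBNL1 was on 155 and 214 of the anchors in LW and on 84 and 134 in MS, NEB on 117 and 130 against 40 and 78, and ZBTB16 on 105 and 144 against 65 and 76. TTN RNA lay on 7.97%, 8.86%, 16.3% and 13.4% of these anchors and on 8.14%, 9.20%, 15.5% and 12.7% of all loop anchors, and ENSSSCG00000048037 RNA on 7.59%, 15.0%, 20.1% and 21.6% against 8.58%, 15.6%, 21.4% and 20.7%. Over all loop anchors, MBNL1 RNA lay on 2.28% and 3.22% in LW and on 0.942% and 1.58% in MS. NEB RNA lay on 1.90% and 2.84% against 0.566% and 1.23%, and ZBTB16 RNA on 1.75% and 2.27% against 0.975% and 1.44%. CMTM4 RNA lay on 0.105% and 0.192% of all loop anchors in LW and on 1.68% and 3.48% in MS. Each of these RNAs thus differed in the same direction over all loop anchors. RNA lying within its own gene or close to it made 77.0% to 82.1% of the signal but reached only 4.94% to 7.92% of the anchors.

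Anchors that looped in LW alone carried less RNA in both breeds. Without RNAs of other chromosomes, the 2078 anchors in no MS loop had signal in 18.9% and 30.0% of cases in LW and 13.8% and 19.9% in MS. The 3590 anchors also in an MS loop had 31.6% and 42.5%, and 28.5% and 37.4%. The same split over all loop anchors gave 22.1%, 30.9%, 16.5% and 23.8% for 20895 anchors in LW loops alone, and 28.8%, 39.3%, 26.1% and 35.7% for 39531 anchors in loops of both breeds. For 10985 anchors in MS loops alone the shares were 23.3%, 31.5%, 18.6% and 26.2%. In each of these sets the libraries of LW and MS overlapped.

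**Figure D4:**
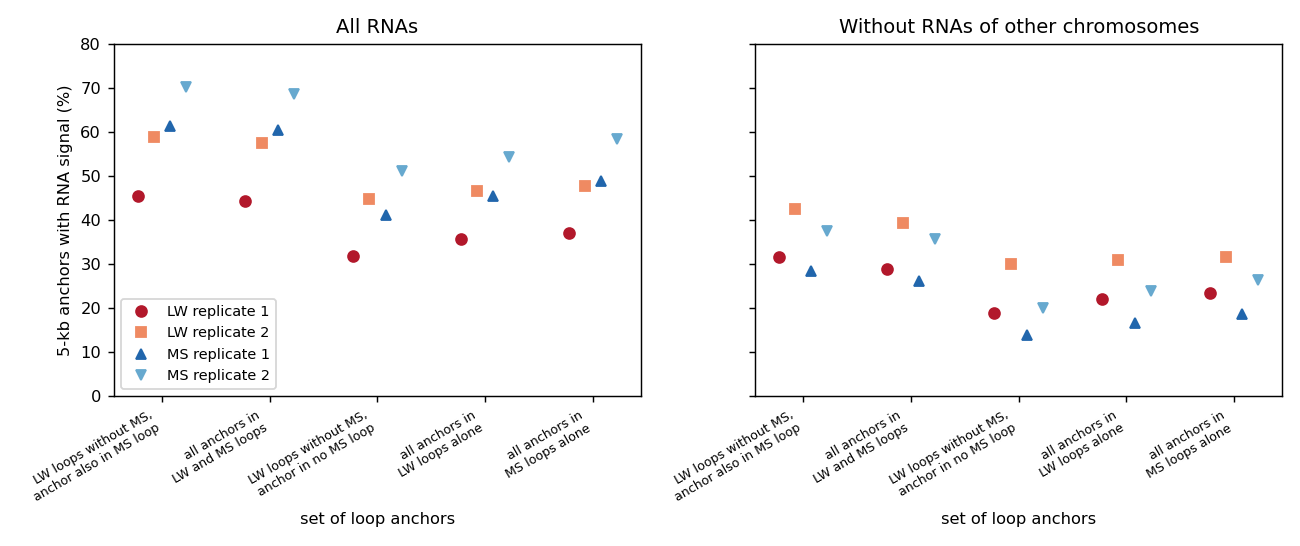
Points give the percentage of 5-kb anchors with RNA signal in each GRID-seq library, for anchors of LW loops without MS and for all loop anchors, split by whether they also take part in an MS loop. With all RNAs the MS libraries reach up to 70.3%, and without RNAs of other chromosomes the LW and MS libraries overlap in all 5 sets.

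The size of the RNA signal was compared between breeds with limma on log2(signal + 1) after quantile normalization, over the 60859 loop anchors with signal in at least 1 library. Of these, 4831 were anchors of LW loops without MS, and 837 of the 5668 had no signal in any library. At an adjusted p under 0.05 no anchor was called, 0.0% of all and 0 of the 4831, and the smallest adjusted p was 0.0623. At an unadjusted p under 0.05 there were 8648 of 60859 anchors and 751 of the 4831. With a fold change above 2 as well, 351 of the 4831 were higher in LW (7.27%) and 400 higher in MS (8.28%), against 6.54% and 7.67% of all anchors. Leaving out an LW library gave more calls higher in LW, and leaving out an MS library gave more calls higher in MS. This held at these anchors and over all anchors alike. The median log2 difference did not follow these calls. Without LW replicate 1, LW replicate 2, MS replicate 1 and MS replicate 2, the median log2 difference, LW minus MS, was −0.37, −0.52, 0.06 and −0.07. Over all anchors it was −0.40, −0.47, 0.04 and −0.05. Without RNAs of other chromosomes, 275 of 2984 anchors were higher in LW and 205 in MS, against 3018 and 2678 of 36398 in all. Libraries of LW lay above those of MS without overlap at 730 (15.1%) and below at 993 (20.6%), against 14.1% and 19.7% of all anchors. The median difference was −0.19 on the log2 scale, LW minus MS, and −0.20 over all anchors. All of these shares were close to the background. Without RNAs of other chromosomes the same fit called 71 of 2984 anchors higher in LW and 77 higher in MS at an adjusted p under 0.05, against 2.31% and 2.74% of 36398 anchors in all, while the shares of these anchors were 2.38% and 2.58%. With the signal as deposited, adjusted calls were also made, at 73 of these anchors higher in LW and 63 higher in MS.

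The calls were split by whether an anchor also looped in MS. Anchors in no MS loop were called higher in LW in 128 of 1601 (8.0%) and higher in MS in 92 (5.75%), and those also in an MS loop in 223 (6.90%) and 308 (9.54%) of 3230. All anchors in LW loops alone gave 7.34% and 5.44%, and all anchors in loops of both breeds 6.01% and 9.02%, so the same split was present over all loop anchors. All anchors in MS loops alone gave 7.12% and 6.59%, so more were called higher in LW there too. More calls higher in LW were thus not particular to anchors that looped in LW alone. The difference itself was not tested.

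Many called anchors had no signal listed in one breed. Of the 351 higher in LW, 132 (37.6%) were at 0 in both MS libraries, and of the 400 higher in MS, 247 (61.8%) were at 0 in both LW libraries. These shares were not taken over all called anchors. Called or not, 520 of the 5668 anchors had signal in both MS libraries and none in LW, and 177 the reverse. Over all 71411 loop anchors these numbers were 6363 and 2043, so the same imbalance was present there. The smallest number of reads of a listed RNA was 432 to 455 by library, so an anchor at 0 may lack its RNA in the list rather than on chromatin, and no fold is given against it. Of the 1165 anchors with signal in all 4 libraries, 93 (7.98%) were called higher in LW and 50 (4.29%) higher in MS, against 6.64% and 5.10% of the 14870 such anchors overall.

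The 10 anchors of smallest p in the 2 directions, among those without overlap, were at 0 in both libraries of the other breed in 8 cases, and each carried RNA listed as local to it. Higher in LW were the anchor at chr11:78645001-78650000, with a signal of 4526 and 5051 in LW and 0 in each MS library, mostly RNA of ENSSSCG00000048674, and the one inside DNMT3A, the gene of a de novo DNA methyltransferase, at chr3:113580001-113585000, with 3467 and 3610 in LW and 0 in each MS library. Anchors inside PSPC1 (1577 and 1902, 0 and 0), ITGB6 (1440 and 1446, 0 and 0.306) and UBE2H (1554 and 1613, 0 and 1.25) followed. In these 3 the gene's own RNA made nearly all of the LW signal, while at DNMT3A it made 2973 and 3077 of it. Higher in MS were 3 neighbouring anchors at RHOB, a small GTPase gene, from chr3:117775001 to 117790000, the first with 24941 and 32906 in MS and 0 in each LW library, then CCDC6 (3942 and 4531 in MS) and an anchor inside CYSTM1 (5931 and 4334 in MS), both at 0 in each LW library. The RHOB RNA was listed in MS alone, while the 45-kb loop from its start was called in both LW libraries and in neither MS library. The unadjusted p of these 10 lay between 7.64e-05 and 0.000317 and the adjusted p was 0.0623 for each (limma). Of the 10 anchors, 8 also took part in an MS loop.

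The RNAs made at these anchors were compared by their reads. Of 1122 RNAs in any GRID-seq list, 308 were in all 4, and the genes of 92 of these lay over an anchor of an LW loop without MS. By edgeR's quasi-likelihood test with Benjamini-Hochberg adjustment, 52 of the 92 were higher in LW (56.5%) and 33 higher in MS (35.9%), against 44.2% and 42.5% of all 308. With library totals in place of TMM factors the numbers were 60 and 22 of the 92 and 161 and 99 of the 308, a scaling that moved the median of all 308 by 0.13. Their median log2 fold change was 0.14, LW minus MS, in the TMM fit. Genes over these anchors were long, with a median of 76.6 kb against 17.2 kb for all 308, and the part of gene length in the result was not tested. When only the 51 RNAs that start at such an anchor were counted, 22 were higher in LW and 25 higher in MS (43.1% and 49.0%), with a median of −0.04. Divided by its degrees of freedom, the chi-square of the reads was 56.0 within LW and 82.2 within MS, against 1755 and 2095 between libraries of the same number in the 2 breeds. In bulk tissue, fewer cells of a type and less RNA per cell cannot be told apart. Muscle fibre markers were listed in the same number in each library (9 of 15), satellite markers 1, 1, 0 and 0 of 7, mesenchymal markers 2, 2, 1 and 2 of 9, and no endothelial, smooth muscle, immune, adipocyte or Schwann marker was listed.

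The RNAs of smallest p that were higher in LW began with MBNL1 and NEB. MBNL1, a splicing regulator gene of muscle, had 133456 and 147039 reads in LW and 61753 and 73975 in MS, a log2 fold change of 0.88 ± 0.01 (SE, adjusted p = 1.90e-06, edgeR). The edgeR test gives no SE, so each SE here is the size of the log2 fold change over the square root of the test's F value. NEB, which codes for the giant thin-filament protein nebulin, had 155425 and 171935 against 82103 and 97784, a difference of 0.70 ± 0.01 (adjusted p = 1.90e-06, edgeR). An LW loop of 40 kb without MS left the NEB start, while MBNL1 had anchors in its gene only. TEX14, ZBTB16 and MLIP were also higher in LW, by 1.16, 0.52 and 0.60 on the log2 scale. Higher in MS were CRY2, a repressor of the circadian clock, with 3850 and 4232 reads in LW against 8819 and 10500 (−1.42 ± 0.02, adjusted p = 2.23e-06, edgeR), and GLUL, the glutamine synthetase gene, with 2323 and 2522 against 6619 and 7937 (−1.75 ± 0.02, adjusted p = 2.23e-06, edgeR). Both had 1 LW loop without MS at their start, of 6 and 4 shared LW loops. ENSSSCG00000028322, ENSSSCG00000041322 and ARPP21 had log2 fold changes of −1.77, −0.90 and −0.54.

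**Figure D5:**
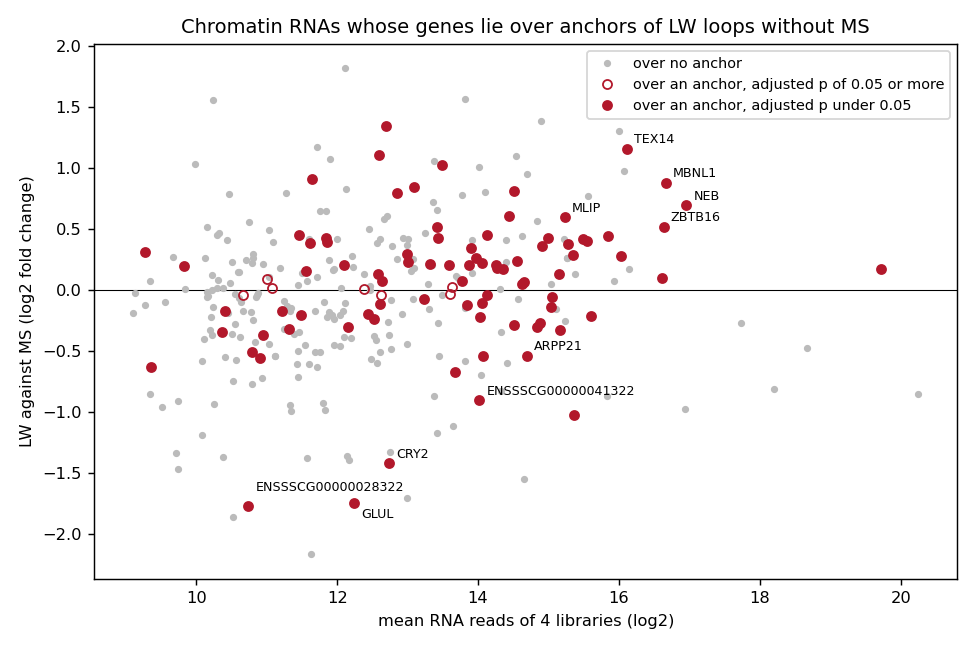
Each point is 1 of 308 RNAs, with the mean reads of the 4 GRID-seq libraries (log2) on the x axis and the edgeR log2 fold change of LW against MS on the y axis. Red points are RNAs whose gene lies over an anchor of an LW loop without MS, filled where the adjusted p is under 0.05, which holds for 85 of 92. NEB and MBNL1 lie above 0 and CRY2 and GLUL below. Of all 308 RNAs, 136 were called higher in LW and 131 higher in MS.

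RNAs starting at an anchor of an LW loop without MS went in either direction. MAF had 3212 and 3622 reads in LW and 2020 and 2445 in MS, both LW libraries above both MS libraries (0.45 ± 0.02, adjusted p = 7.10e-05, edgeR). APOBEC2 (0.91), SLC38A4 (0.82), POPDC2 (0.40), TTN (0.17) and QKI (0.17) were also higher in LW on the log2 scale, as was RPL3 (0.43), a ribosomal protein gene whose start met the loop of TAB1. CMYA5, JPH1, SMAD3 and ACTN2, each with an LW loop without MS at the start, were lower in LW, with log2 fold changes of −0.30, −0.28, −0.22 and −0.21, and all passed the same test. Of the 51 RNAs starting at such an anchor, 47 were called. Of all 308 RNAs, the same test called 136 higher in LW and 131 higher in MS. When RNAs missing from some lists were also fitted, 27 of the 47 missed the threshold. Among them were MAF (adjusted p = 0.0605), SMAD3 (0.0647), POPDC2 (0.0700), QKI (0.129) and TTN (0.149), all edgeR and with the same sign. That fit called 121 higher in LW and 133 higher in MS of 1122 RNAs, so a smaller share was called over all RNAs too. Small differences turned sign with another setting. PDLIM3 had 0.05 and turned to −0.01 when RNAs under a mean of 2000 reads were left out. PDK4 had −0.11 and turned to 0.02 with library totals. MYOZ1 (−0.19) and TEAD1 (−0.14) kept their sign with library totals but missed the threshold there, with adjusted p of 0.198 and 0.649 (edgeR).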

How the data were processed

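H3K27ac BL-HiChIP and GRID-seq were run on pig longissimus muscle, with 2 LW and 2 MS libraries per assay, on Sscrofa11.1. The authors deposited, per HiChIP library, loops between 5-kb bins with an FDR (a q-value under 0.01), called by FitHiChIP in each library separately. They deposited, per GRID-seq library, pairs of an RNA and a 1-kb bin with a background-corrected signal of at least 0.02 and a whole number per RNA, read here as a read count. The lists have no header, and these readings come from the methods and the values. The labels state DSG and formaldehyde for GRID-seq, and the methods formaldehyde alone.

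Loops were matched by bin. Signal was summed over RNAs and bins in an anchor and compared with limma 3.58.1 (quantile normalization, pseudocount 1). The listed RNAs totalled 7172517 to 9943666 reads per library, and those in all 4 lists were compared with edgeR 4.0.16 (R 4.3.3, TMM), and with DESeq2 1.42.0 as an alternative. The scripts were tested on simulated data. Members and gene lists were chosen with earlier results of these data known. Named were genes at the 10 strongest loops and 10 largest groups, the 10 coding genes with most loops, up to 3 genes a list, and the 5 anchors and 5 RNAs of smallest p in each direction; the other genes, among them further list members, were chosen after their values were seen. Gene starts come from RefSeq names without strand. Results on some items are not reported here.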

Additional observations from a re-analysis of the deposited data

How the results depend on the processing

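The number of LW loops without MS depended on how a counterpart was defined and on list length: it was 5371 when an MS loop had to have the same anchors, 1402 with LW lists at an FDR of at most 0.001 (median distance 30 kb) and 1663 with equal lists. Leaving out 1 library gave 5115 to 24056 loops, from 5115 without MS replicate 2 to 24056 without LW replicate 2, with median distances of 35 to 60 kb and 40.4% to 48.1% at a gene start. That share was 38.2% for coding genes and 54.7% with anchors widened by 1 bin. The mean share of anchors with RNA signal was 32.4% in LW and 27.02% in MS without RNAs of other chromosomes, and 36.2% and 41.0% without TTN and the 2 RNAs with most bins on other chromosomes. The absence of adjusted limma calls held for quantile-normalized signal over filtered anchors. The calls higher in LW and in MS were 831 and 857 of all anchors and 73 and 63 of those described here with signal as deposited, 789 and 833, and 70 and 59, when scaled to total signal, 538 and 774, and 42 and 62, with no filter, and 842 and 997, and 71 and 77, without RNAs of other chromosomes. The cause was not tested. In that last setting, 275 anchors passed the unadjusted rule with LW higher and 205 with MS higher, so that the larger number turned from MS to LW. Leaving out 1 library gave 265 to 631 anchors higher in LW by that rule (631 without LW replicate 1) and 288 to 765 higher in MS (765 without MS replicate 2). The replicate numbers are not stated to pair libraries, and deviations of same-numbered libraries correlated at 0.0211 for signal and 0.939 for reads. With the replicate number as a block, limma again made 0 adjusted calls. The unadjusted rule then gave 283 and 291 of the 4831 anchors, against 3259 and 3450 of all 60859. With the same block, edgeR called 138 and 140 of 308 RNAs and 52 and 33 of the 92. For the 10 named anchors, direction and the unadjusted call were the same in all 110 alternatives, and for the 10 named RNAs direction and the adjusted call in all 89. The named anchors and RNAs were picked for the smallest p in these same libraries, and most of the anchors were at 0 in both libraries of 1 breed. Their agreement over settings was therefore nearly fixed by the choice and says little about other anchors or RNAs. Depth of the loop libraries is unknown from the lists.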
